A study of Arundinella anomala and Arundinella fluviatilis and Arundinella hirta with 8 samples.

Results

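Leaves of *Bothriochloa ischaemum* and *Capillipedium parviflorum*, grasses of related genera, were compared by RNA sequencing with 1 library each. These 2 libraries were taken from a series of 8 by species name. The other 6 libraries, used here only as background, came from *Arundinella* (5 species) and *Imperata cylindrica*. All plants are labelled as wild type, at the mature stage, grown at 22 °C in 16 h of light and 8 h of dark, and RNA was taken from the 3rd leaf. No library carries a treatment, transgene or second sample of its species. Species, plant and library therefore cannot be told apart, no difference can be set against a replicate spread, and no p-value is given. In whole-leaf RNA, fewer cells of a type and less RNA per cell cannot be told apart either.

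*Bothriochloa* and *Capillipedium* belong to the Andropogoneae, the grass tribe that also holds maize, and species of these genera are known to hybridise. Grasses of this tribe use C4 photosynthesis, in which the mesophyll first binds carbon into organic acids and the bundle sheath breaks these down beside Rubisco. Mature leaves of such plants carry abundant transcripts of the photosynthetic apparatus.

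Levels are FPKM, fragments scaled by the length of the sequence and the size of the library, listed under maize protein models and summed here to 26274 genes. An FPKM column is a relative scale, so a fold between libraries depends on how each was scaled. The files pair these maize identifiers with no gene names or functions, so genes are given by identifier without a role. For the same reason the leaf label could not be checked against marker genes. A value of 0 is given as listed at 0, because it can be a failed estimate and not an absent transcript. Both libraries listed few genes: 9681 genes (36.8%) were above 0 in *B. ischaemum* and 8142 (31.0%) in *C. parviflorum*. This was not particular to them, since *I. cylindrica* listed 10198 (38.8%) and *A. hirta* 10697 (40.7%). The remaining *Arundinella* libraries listed 18023 to 20607. The FPKM of *B. ischaemum* and *C. parviflorum* summed to 284445 and 212357. The sums were 319415 in *A. hirta*, 349576 in *I. cylindrica* and 701722 to 829005 in the remaining libraries, and read depth is unknown. No pair of the 8 libraries held identical values.

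The first question was which genes the 2 leaves had in common. Genes above 0 in both numbered 5149, which was 53.2% of the *B. ischaemum* list and 63.2% of the *C. parviflorum* list. A further 4532 genes were above 0 in *B. ischaemum* alone and 2993 in *C. parviflorum* alone, while 13600 were at 0 in both. The common genes carried 64.4% of the summed FPKM of *B. ischaemum* and 68.7% of that of *C. parviflorum*. The rest of each leaf's summed level stood on genes listed at 0 in the other leaf.

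The difference in listing was present at every level of expression. Of all genes above 0 in *B. ischaemum*, 46.8% were at 0 in *C. parviflorum*, and the share was 56.7% for genes under 1 FPKM, 46.6% from 1 to 10 FPKM, 42.8% from 10 to 100 FPKM, 38.3% from 100 to 1000 FPKM and 31.4% (11 of 35) from 1000 FPKM. In the other direction, 36.8% of genes above 0 in *C. parviflorum* were at 0 in *B. ischaemum*. By level that share was 48.5% under 1 FPKM, 35.8% from 1 to 10 FPKM, 30.9% from 10 to 100 FPKM, 38.5% from 100 to 1000 FPKM and 28.6% (8 of 28) from 1000 FPKM. The share fell at every step in *B. ischaemum*, but in *C. parviflorum* it rose again between the 10 to 100 and the 100 to 1000 FPKM ranges.

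**Figure D1:**
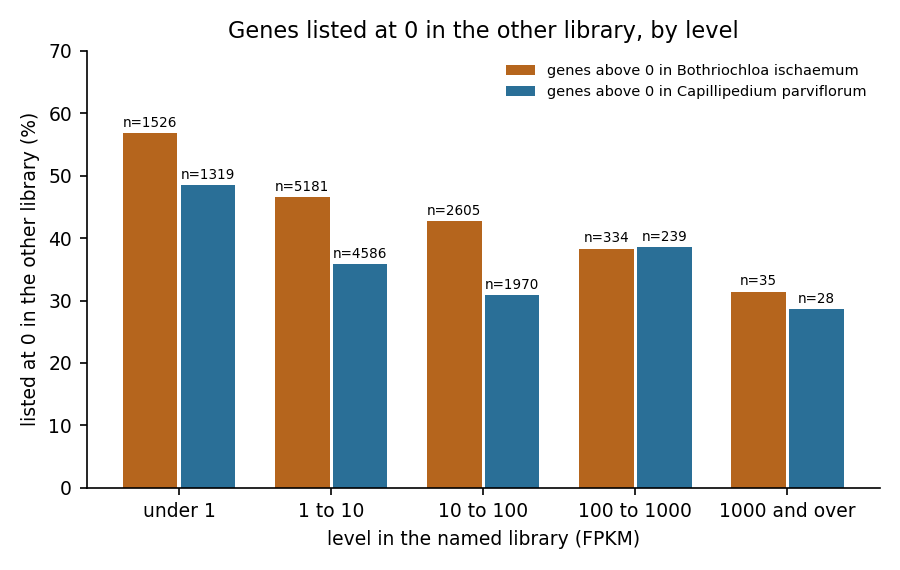
Share of genes listed at 0 in the other library (percent, vertical axis) by FPKM range in the library named in the legend (horizontal axis), with the number of genes above each bar. Among the most abundant genes, 31.4% of those of *B. ischaemum* and 28.6% of those of *C. parviflorum* were still at 0 in the other leaf.

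Over the 5149 genes above 0 in both, the order of levels was alike but loosely so. Spearman's rho across these genes, which are not independent replicates, was 0.577. The median gene shifted its rank by 14.1 percentile points between the libraries. For 2033 genes (39.5%) the shift was under 10 points, and for 389 genes (7.55%) it was over 50 points. Over each library's own genes above 0 (9681 and 8142), the median level was 4.06 FPKM in *B. ischaemum* and 3.55 FPKM in *C. parviflorum*. The highest values were 20538 and 12253 FPKM.

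The log2 ratio of *C. parviflorum* to *B. ischaemum* had a median of −0.18, quartiles of −1.28 and 0.88, and an SD over genes of 1.93. Of the genes, 46.6% lay within 2-fold of each other in the 2 leaves. With a 4-fold difference taken as a call, 732 genes (14.2%) were higher in *B. ischaemum* and 536 (10.4%) in *C. parviflorum*, 24.6% in all. The direction of this balance changed with the scaling. With both columns rescaled to the same sum, the median ratio turned to 0.25, and 535 genes were at least 4-fold higher in *B. ischaemum* against 746 in *C. parviflorum*. With ratios centred on their median the counts were 636 and 621. The share of 4-fold genes higher in *B. ischaemum* was thus 57.7% as deposited, 50.6% centred and 41.8% rescaled.

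The ratios also varied with the level of the genes. Grouped by the geometric mean of the 2 values, 19.1% of the 451 genes under 1 FPKM were past 4-fold, with an SD of the log2 ratio of 1.5. The share was higher from 1 to 10 FPKM, where 27.6% of the 3203 genes were past 4-fold (SD 1.99). From 10 to 100 FPKM 20.9% of 1344 genes were past 4-fold (SD 1.95), and from 100 to 1000 FPKM 11 of 129 genes (SD 1.24). Of the 22 genes from 1000 FPKM, 5 were past 4-fold (SD 1.70), so neither the share nor the SD followed the level in 1 direction.

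**Figure D2:**
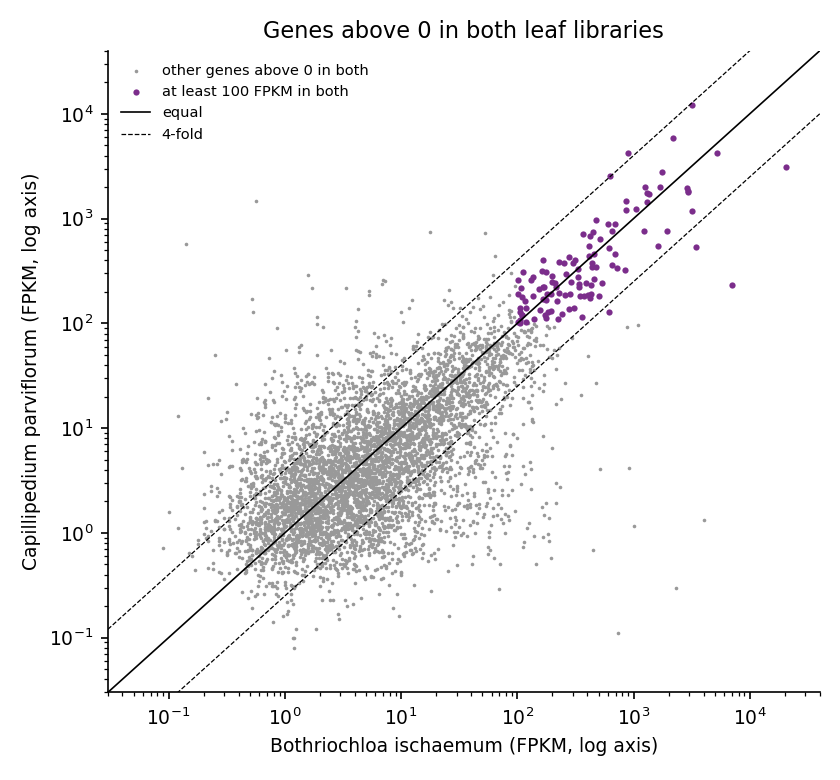
FPKM in *C. parviflorum* against FPKM in *B. ischaemum* for the 5149 genes above 0 in both libraries (log axes). The solid line marks equal values, the dashed lines a 4-fold difference, and the 112 genes of at least 100 FPKM in both are in purple.

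Set beside the other pairs of libraries, these were neither the most nor the least alike. With each of the 28 pairs taken over genes above 0 in both of its members, the rho of 0.577 ranked 11th and the SD of the log2 ratio ranked 10th from the narrowest. Among pairs with 1 of these libraries, rho was 0.540 for *B. ischaemum* with *Arundinella hirta* and 0.534 with *A. anomala*, and 0.430 with *I. cylindrica*. For *C. parviflorum* the same values were 0.4996, 0.488 and 0.407. In both libraries the partner with the highest rho was the other, and *I. cylindrica* was the partner with the lowest. These pairs share libraries and rest on different genes, so the order is a description only. Over the 1586 genes above 0 in all 8 libraries the rho between the 2 leaves was 0.563, ranked 6th of the 28 pairs. For *B. ischaemum* the next partners were close, *A. fluviatilis* at 0.556 and *A. anomala* at 0.554, while for *C. parviflorum* the next was *A. anomala* at 0.465. The lowest partner over these genes was not the same for both leaves. For *B. ischaemum* it was *I. cylindrica* at 0.4276, close to *A. nepalensis* at 0.4365. For *C. parviflorum* it was *A. nepalensis* at 0.3623, below *I. cylindrica* at 0.3918.

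The most abundant genes of each leaf overlapped in part. The 10 highest genes held 22.6% of the summed FPKM in *B. ischaemum* and 21.6% in *C. parviflorum*, and 3 genes were on both of these lists. Of the 10 highest in *B. ischaemum*, 1 was listed at 0 in *C. parviflorum*, and of the 10 highest in *C. parviflorum*, 3 were listed at 0 in *B. ischaemum*. Among the 100 highest of each, 43 were common, while 32 of the *B. ischaemum* list and 35 of the *C. parviflorum* list were at 0 in the other leaf.

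Genes of at least 100 FPKM in both leaves numbered 112, which was 30.4% of the 369 genes at that level in *B. ischaemum* and 41.9% of the 267 in *C. parviflorum*. They carried 34.4% and 38.9% of the summed FPKM. The lower of the 2 values was 101 FPKM for the gene just inside this threshold and 99.98 FPKM for the gene just outside it. Of the 112, 82 (73.2%) lay within 2-fold and 6 were past 4-fold, 4 higher in *B. ischaemum* and 2 in *C. parviflorum*. A floor in both columns leaves little room for large ratios, so the low number past 4-fold beside the 24.6% of all common genes is partly given by the choice. The median log2 ratio was 0.02, with 55 genes higher in *B. ischaemum* and 57 in *C. parviflorum*.

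The 10 genes with the highest geometric mean over the 2 leaves show how such shared genes behave. GRMZM2G036629 was the highest gene of *B. ischaemum* at 20538 FPKM and the 6th of *C. parviflorum* at 3082 FPKM, a log2 ratio of −2.74. Outside these leaves *A. pubescens* held it at 14101 FPKM, *A. anomala* at 53.6 FPKM and *A. fluviatilis* at 41.9 FPKM, while *A. hirta*, *A. nepalensis* and *I. cylindrica* listed it at 0. It was thus abundant in 3 of the 8 libraries and low or at 0 in the other 5.

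GRMZM2G092311 led *C. parviflorum* at 12253 FPKM and ranked 7th in *B. ischaemum* at 3214 FPKM, a log2 ratio of 1.93. Elsewhere it was lowest in *A. nepalensis* at 1205 FPKM, followed by *A. anomala* at 1734 FPKM, *A. hirta* at 1919 FPKM, *A. fluviatilis* at 2640 FPKM, *A. pubescens* at 5357 FPKM and *I. cylindrica* at 9095 FPKM. Every library thus held this gene above 1000 FPKM, and *C. parviflorum* stood highest. The log2 ratio passed the 4-fold line with ratios centred (2.11), with columns rescaled (2.35) and with the highest protein model taken in place of the sum (2.35).

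GRMZM2G113033 ranked 4th in both leaves, at 5183 FPKM in *B. ischaemum* and 4244 FPKM in *C. parviflorum*. The log2 ratio was −0.29 as deposited and 0.13 with columns rescaled, so its direction was not settled. The other libraries ran from 35.8 FPKM in *I. cylindrica* through 1380 FPKM (*A. anomala*), 2359 (*A. fluviatilis*), 3209 (*A. pubescens*) and 4764 (*A. hirta*) to 11028 FPKM (*A. nepalensis*). As deposited, both leaves lay inside the *Arundinella* range for this gene, and *I. cylindrica* was far below all others. The column sums of the 8 libraries ran from 212357 to 829005 FPKM, so a place within such a range depends on the scaling. Ranges over the other libraries are given as deposited only.

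GRMZM2G038519 was at 2164 FPKM in *B. ischaemum* and 5840 FPKM in *C. parviflorum*, ranks 16 and 3. The other libraries held it between 1143 and 6731 FPKM, except *A. hirta* at 0.48 FPKM. GRMZM2G070605 was the most even of the 10 over the series, at 2968 FPKM in *B. ischaemum*, 1776 FPKM in *C. parviflorum* and 857 to 3538 FPKM in the other 6 libraries. As deposited, its 2 values therefore sat inside the range of the remaining libraries, and this was not recomputed with columns rescaled.

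A group of these genes was abundant in both leaves and listed at 0 in *I. cylindrica*. GRMZM2G080107 was at 2875 FPKM in *B. ischaemum* and 1938 FPKM in *C. parviflorum*, above all 5 *Arundinella* libraries (601 to 1067 FPKM). GRMZM2G013342 was at 1741 and 2808 FPKM, against 940 to 2249 FPKM in *Arundinella*. GRMZM2G001653 was at 905 FPKM in *B. ischaemum* and 4207 FPKM in *C. parviflorum*, a log2 ratio of 2.22, against 595 to 2752 FPKM in *Arundinella*. Of the 10 genes, 5 were listed at 0 in *I. cylindrica*, and 4 were above 0 in all 6 other libraries. Of the 112 shared genes, 59 were above 0 in *I. cylindrica*, beside 38.8% of all genes. Above 0 in all 6 were 37 of the 112, beside 3876 of all 26274 genes. A listing at 0 in *I. cylindrica* was thus not particular to these 10 genes.

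GRMZM2G125850 was listed above 0 in the fewest other libraries of the 10. It was at 2918 FPKM in *B. ischaemum* and 1848 FPKM in *C. parviflorum*, with 1311 FPKM in *A. pubescens*, 76.8 FPKM in *A. nepalensis* and a listing at 0 in the other 4 libraries. GRMZM2G122337 was at 3162 FPKM in *B. ischaemum* and 1182 FPKM in *C. parviflorum*, against 224 to 2522 FPKM in the other libraries apart from *A. nepalensis*, where it was listed at 0. Over the 10 genes, 6 were higher in *B. ischaemum* and 4 in *C. parviflorum*, 5 lay within 2-fold, and 2 were past 4-fold.

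**Figure D3:**
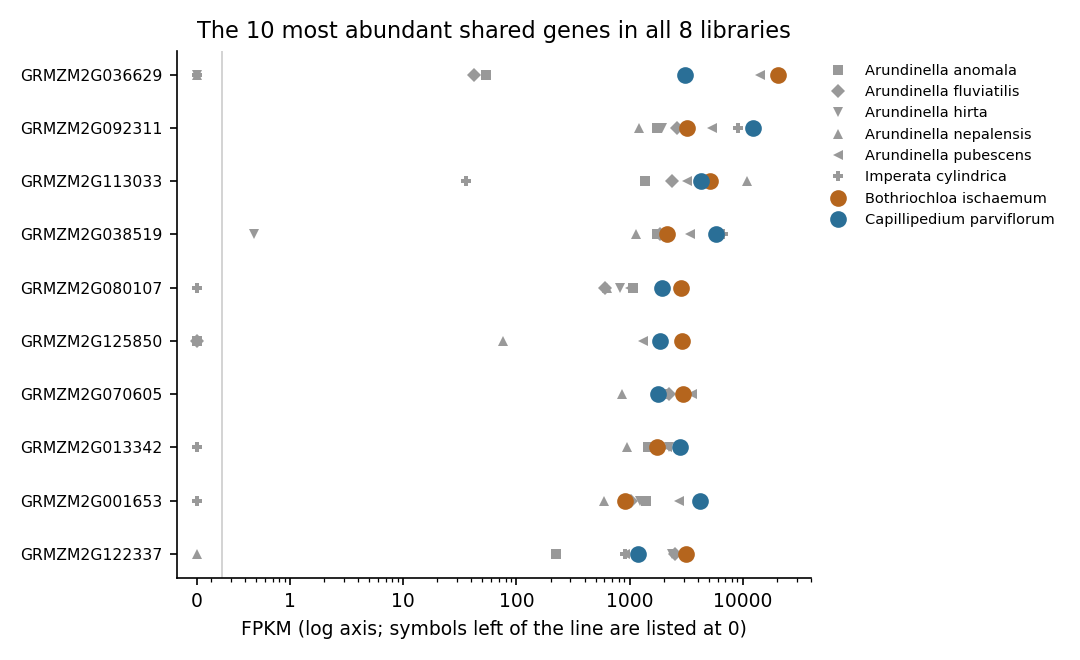
FPKM (horizontal log axis) of the 10 genes with the highest geometric mean over the 2 leaves, in each of the 8 libraries, with *B. ischaemum* and *C. parviflorum* as coloured circles and the other libraries as grey symbols. Values listed at 0 are drawn left of the vertical line, where *I. cylindrica* stands for 5 of the genes.

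The remaining 102 shared genes ran from 101 to 7072 FPKM in *B. ischaemum* and from 101 to 2577 FPKM in *C. parviflorum*. The 112 genes were also often abundant in the *Arundinella* libraries, and less often in *I. cylindrica*. Genes of the 112 at 100 FPKM or more numbered 82 in *A. pubescens*, 80 in *A. fluviatilis* and 84 in *A. anomala*. The number was 64 in *A. nepalensis*, 56 in *A. hirta* and 37 in *I. cylindrica*. Of all genes, 4.48% reached that level in *A. pubescens*, 5.11% in *A. fluviatilis* and 4.99% in *A. anomala*. The share of all genes was 4.48% in *A. nepalensis*, 1.94% in *A. hirta* and 1.49% in *I. cylindrica*. The libraries with the fewest of the 112 genes at that level, *I. cylindrica* and *A. hirta*, thus also had the lowest shares of all genes. All 6 other libraries held 12 of the 112 genes at that level, and none of the 6 did so for another 6 genes. Over all 26274 genes these counts were 41 and 23541. One gene, GRMZM2G162788, was at 197 FPKM in *B. ischaemum* and 189 FPKM in *C. parviflorum* and listed at 0 in the 6 other libraries. It was singled out after its values were seen.

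Abundant genes were listed at 0 in the other leaf about as often from either side. Of the 369 genes of at least 100 FPKM in *B. ischaemum*, 139 (37.7%) were at 0 in *C. parviflorum*. Of the 267 such genes in *C. parviflorum*, 100 (37.5%) were at 0 in *B. ischaemum*. Over genes of all levels these shares were 46.8% and 36.8%, so that of *C. parviflorum* was near its background and that of *B. ischaemum* below its own. These sets carried 20.6% and 20.1% of the summed FPKM of their leaf, and their median levels were 173 and 175 FPKM. The values beside the threshold were 100.2 and 99.9 FPKM in *B. ischaemum* and 100.4 and 99.6 FPKM in *C. parviflorum*, so the limit of 100 FPKM cuts through a continuous range.

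The highest gene of the *B. ischaemum* set was GRMZM2G155216, at 11597 FPKM there, the 2nd highest value of that leaf, and listed at 0 in *C. parviflorum*. The *Arundinella* libraries held it at 7709 FPKM (*A. anomala*), 6176 (*A. pubescens*), 2404 (*A. fluviatilis*), 1263 (*A. hirta*) and 4.96 (*A. nepalensis*), and *I. cylindrica* listed it at 0. The highest gene of the *C. parviflorum* set was GRMZM2G018627, at 6575 FPKM there, the 2nd highest value of that leaf, and listed at 0 in *B. ischaemum*. It was at 1998 to 9627 FPKM in the 5 *Arundinella* libraries and at 7513 FPKM in *I. cylindrica*. *B. ischaemum* was therefore the 1 library of 8 in which this gene was listed at 0. No fold is given for these genes because 1 of the values is 0.

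Seen in the other 6 libraries, neither set was made up mainly of genes found in its own leaf alone. In *A. anomala* 88.5% of the *B. ischaemum* set and 91.0% of the *C. parviflorum* set were above 0, beside 93.8% of the 112 shared genes and 77.9% of all genes. In *I. cylindrica* the same shares were 45.3%, 47.0%, 52.7% and 38.8%. A higher value than in the leaf that defined the set was found in at least 1 other library for 79 of the 139 genes (56.8%) and 57 of the 100 (57.0%). Among the 112 shared genes, 64 (57.1%) had a higher value in another library, so this was not particular to the 2 sets. The other 6 libraries also had larger column sums (319415 to 829005 FPKM), and the part of these sums was not tested. Just 2 genes of the *B. ischaemum* set and 1 of the *C. parviflorum* set were at 0 in all 6 other libraries. The same held for 1 of the 112 shared genes and 628 of all 26274 genes.

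Levels in the other libraries were nevertheless lower than those of the shared genes. In *A. anomala*, 73 of the 139 genes and 54 of the 100 genes reached 100 FPKM, beside 84 of the 112 shared genes. In *A. hirta* the numbers were 40, 35 and 56, and in *I. cylindrica* they were 27, 27 and 37. Of all genes, 4.99% reached that level in *A. anomala*, 1.94% in *A. hirta* and 1.49% in *I. cylindrica*. The shared genes had the highest share in each of the 6 libraries, and the *B. ischaemum* set had the lowest. The shared genes were also the more abundant set within the 2 leaves, with medians of 340 FPKM in *B. ischaemum* and 271 FPKM in *C. parviflorum*, and its part in these shares was not tested. No test over replicates is possible with 1 library per species.

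**Figure D4:**
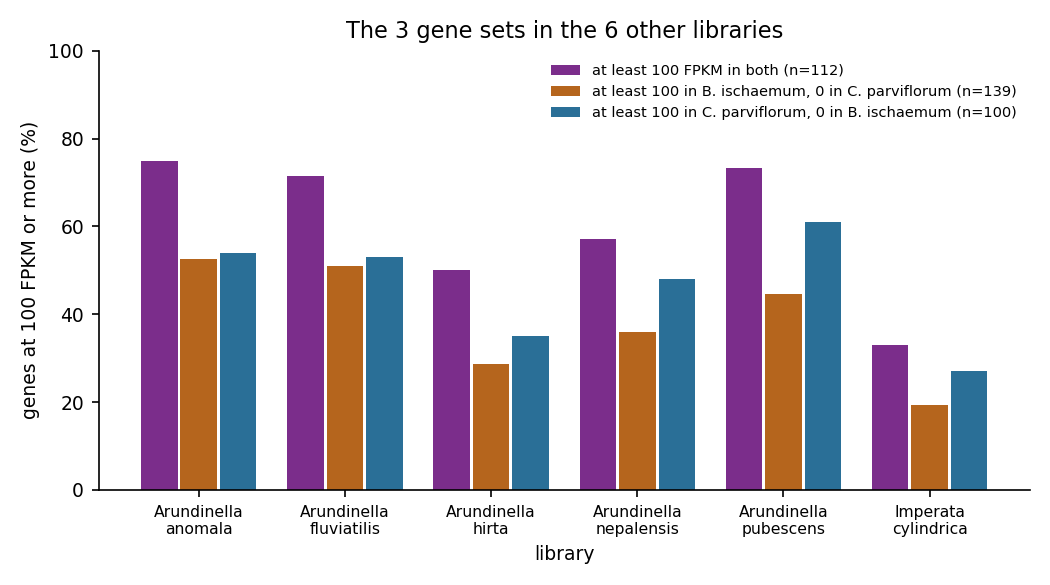
Percent of genes at 100 FPKM or more (vertical axis) in each of the 6 other libraries, for the 112 shared abundant genes and for the 139 and 100 genes abundant in 1 leaf and listed at 0 in the other. The shared genes are highest in every library, from 37 of 112 in *I. cylindrica* to 84 of 112 in *A. anomala*. Their choice by 100 FPKM in both leaves gives part of this.

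Between these extremes, 173 genes were above 0 in both leaves and at least 100 FPKM in exactly 1 of them. Of these, 61 were at least 4-fold higher in *B. ischaemum* and 29 in *C. parviflorum*, or 52.0% in all. Being chosen for a high value in 1 column, such genes lean towards large ratios. GRMZM2G160268 had the largest ratio towards *B. ischaemum*, at 2319 FPKM against 0.30 FPKM in *C. parviflorum*. It was at 1447 to 7704 FPKM in 4 *Arundinella* libraries and listed at 0 in *A. hirta* and *I. cylindrica*. Among genes with names that begin with GRMZM, GRMZM2G094165 had the largest ratio towards *C. parviflorum*, at 568 FPKM against 0.14 FPKM in *B. ischaemum*. Elsewhere *A. nepalensis* held it at 3952 FPKM, *A. pubescens* at 2458 FPKM, *A. anomala* at 425 FPKM, *I. cylindrica* at 3.82 FPKM and *A. fluviatilis* at 1.62 FPKM, and *A. hirta* listed it at 0. Both log2 ratios (−12.92 and 11.99) rest on a value close to 0, and with 1 added to each FPKM they were −10.80 and 8.96.

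Values just above 0 in the other leaf were uncommon among abundant genes, as they were among all listed genes. Of the genes of at least 100 FPKM in *B. ischaemum*, 11 were above 0 and under 1 FPKM in *C. parviflorum*, 107 were from 1 to under 100 FPKM, and 139 were at 0. For *C. parviflorum* the same counts in *B. ischaemum* were 4, 51 and 100. Of all 9681 genes above 0 in *B. ischaemum*, 679 were above 0 and under 1 FPKM in *C. parviflorum*. In the other direction the number was 660 of 8142. Counting values under 1 FPKM with the zeros raised the sets to 150 and 104 genes.

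Several protein models of 1 gene were listed for 1594 of the 5149 common genes. The model with the highest value was the same in both leaves for 1050 of them (65.9%), and for 766 of the 1062 genes with 2 models (72.1%). In 207 genes (13.0%) no single model was above 0 in both leaves, although the gene was. Among the 43 shared abundant genes with more than 1 model, the highest model was the same for 40. Genes with several models had an SD of the log2 ratio of 2.10 and a rho of 0.551, against 1.85 and 0.585 for the 3555 genes with 1 model.

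Genes that were abundant elsewhere were listed in the 2 leaves more often than genes in general, though many were low or at 0. The 3 libraries that listed the most genes (*A. anomala*, *A. pubescens* and *A. fluviatilis*) had 526 genes at 100 FPKM or more in all 3. Of these 526, 193 (36.7%) were above 0 in both *B. ischaemum* and *C. parviflorum*, 87 were at 0 in *C. parviflorum* only, 65 were at 0 in *B. ischaemum* only, and 181 (34.4%) were at 0 in both. Over all 26274 genes, 19.6% were above 0 in both leaves and 51.8% at 0 in both. Under 100 FPKM in both leaves were 344 of the 526 (65.4%), beside 98.0% of all genes.

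The files hold no annotation by which enzymes of the C4 cycle could be picked out. A list of 20 maize gene models, recalled from general knowledge as genes of the C4 cycle, Rubisco and its activase, was therefore counted only as a list. Of the 20, 8 were above 0 in both leaves, 5 in *B. ischaemum* alone, 2 in *C. parviflorum* alone and 5 in neither. Over all genes the same shares were 19.6%, 17.2%, 11.4% and 51.8%. Among the 8, 2 were at least 4-fold higher in *B. ischaemum* and 1 in *C. parviflorum*, beside 14.2% and 10.4% of all common genes, and the median log2 ratio was −0.43, beside −0.18. At 100 FPKM or more were 3 of the 20 in *B. ischaemum*, 5 in *C. parviflorum* and 2 in both. Over all 26274 genes the same counts were 369, 267 and 112. Of 9 list members at that level in the 3 most fully listed *Arundinella* libraries, 6 were under 100 FPKM in both leaves, which is close to the 65.4% of the 526 genes above.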

How the data were processed

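Total RNA of fresh leaves was made into libraries with a TruSeq RNA kit, per the labels' protocols. The authors deposited FPKM values in 1 table for all 8 libraries. RSEM was used, per the submitters' processing notes; its version, the aligner, the genome build and filters were not given in the sources used here. This tool shares reads out between look-alike transcripts by estimation, so related genes can exchange values, and read depth and counting error are unknown.

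The table holds 36698 lines. Of their names, 35519 (96.8%) occur in the deposited cross-reference, whose 6 columns hold identifiers only. Protein models were summed to 26274 genes, and 7292 genes had several lines. Columns were matched to species by name. Ratios are log2(*C. parviflorum*/*B. ischaemum*) without a pseudocount over genes above 0 in both. A 4-fold difference was the call, and 100 FPKM the limit for an abundant gene. Spearman's rho was computed with scipy 1.17.1, numpy 2.4.6 and pandas 2.3.3 in Python 3.11.15, and figures with matplotlib 3.10.9. The script was tested on simulated data.

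The comparison and the lists were chosen with earlier results of these data known. The rule for genes to print took the 10 highest geometric means, the largest ratio and the highest value against 0 in each direction, and the recalled list. For the largest ratio towards *C. parviflorum*, only names that begin with GRMZM were eligible. This limit was not part of the planned rule and was applied in that direction only. Since the files annotate no identifier, no more than 2 identifiers are given per direction, the recalled list is given by counts, and lists defined by words in gene descriptions could not be run. Alternatives were other pseudocounts, minimum levels, thresholds, scalings and protein model rules; a filter to genes above 0 in *A. anomala*, *A. fluviatilis* and *A. pubescens*, and the rescaled ratios of single genes, were added after seeing the data.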

Additional observations from a re-analysis of the deposited data

How the results depend on the processing

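The rank correlation of 0.577 was 0.565 over genes of at least 1 FPKM in both leaves, 0.626 over at least 10 FPKM and 0.589 with each line taken on its own. Over all genes above 0 in at least 1 leaf it was −0.0499, because a gene listed in 1 leaf is tied at 0 in the other. The median log2 ratio of −0.18 was −0.13 with 1 added to each FPKM, −0.20 over at least 1 FPKM, −0.16 with the highest protein model, and reversed to 0.25 with columns rescaled. The SD of 1.93 was 1.53 with 1 added, 1.69 over at least 1 FPKM, 1.09 over at least 10 FPKM and 1.92 with the highest protein model. The 536 and 732 genes past 4-fold (higher in *C. parviflorum* and in *B. ischaemum*) were 312 and 465 with 1 added, 307 and 474 over at least 1 FPKM, 1187 and 1560 at 2-fold, and 224 and 342 at 8-fold. The 112 shared abundant genes were 245 at 50 FPKM, 61 at 200 FPKM and 508 with columns rescaled to a sum of 1000000, which raises every value. The 139 and 100 genes abundant in 1 leaf and at 0 in the other were 313 and 191 at 50 FPKM, 60 and 46 at 200 FPKM, and 572 and 415 with columns rescaled. Restricted to genes above 0 in *A. anomala*, *A. fluviatilis* and *A. pubescens*, the counts were 102 shared, 113 and 83. Of the printed genes, GRMZM2G113033 was the 1 whose ratio changed sign, to 0.13 with columns rescaled. GRMZM2G092311 crossed the 4-fold line in 3 settings, and 44 other recomputed gene ratios kept their sign and their side of that line. No paired analysis was possible because each species has 1 library, and for the same reason no replicate could be left out. With depth unknown, no detection limit can be given for a value of 0.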
